A study of Mus musculus with 6 samples.

Results

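The 9 genes described here belong to the Notch pathway: the ligand gene Jag1, the receptor genes Notch1, Notch2 and Notch4, the receptor-cleaving protease gene Adam10, the ubiquitin ligase gene Dtx4, the DNA-binding effector gene Rbpj, its coactivator gene Maml1 and the target gene Hes1. They were taken by their GENCODE vM21 symbols, and all 9 were found, each as 1 row among the 27378 gene rows of the deposited count table. The RNA came from mouse immune cells sorted for CD45, a surface protein of blood-derived and microglial cells, and was sequenced as single cells with 10x 3' v3 chemistry in 6 libraries. There were 2 libraries from Rbpj-deleted gliomas (Trp53 ko, Rbpj ko), 2 from control gliomas (Trp53 ko, Rbpj wt) and 2 from healthy brain (Trp53 wt, Rbpj wt). Both tumour groups therefore shared the Trp53 deletion, and healthy brain carried neither deletion. The series design gives pools of 9 Rbpj-deleted tumours, 15 control tumours and 9 healthy brains, while the extraction protocol describes 1 mouse per well. The mice behind each library are not listed, so the p-values below measure the spread between libraries, which may be technical in part. The labels state no age for the mice.

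The Rbpj deletion was made in the tumour cells, and early gliomas were recognised by GFP from a Cre reporter (Rosa-CAG::GFP) and micro-dissected, whereas the sequenced cells were the CD45+ immune cells. Which promoter drove Cre is not stated in the labels. The level of Rbpj in these libraries is thus a measurement of immune cells and does not check the deletion in the tumour.

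Notch receptors are cut at the cell surface after a ligand on a neighbouring cell has bound them. Adam10 makes the first of these cuts and gamma-secretase the next, which frees the intracellular part of the receptor to enter the nucleus. There it binds Rbpj and Mastermind-like proteins such as Maml1 and turns on target genes such as Hes1, which encodes a transcriptional repressor. Without the receptor fragment, Rbpj sits on DNA with corepressors. In the immune system the pathway is known for T cell development, for the marginal zone B cell (Notch2) and for subsets of dendritic cells and monocytes (Notch2 and Rbpj).

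In the mm10 build Jag1 (ENSMUSG00000027276) lies on chromosome 2:137081456-137116644 on the minus strand and Notch1 (ENSMUSG00000026923) on chromosome 2:26457903-26516663, also minus. Notch2 (ENSMUSG00000027878) lies on chromosome 3:98013527-98150361 on the plus strand and Notch4 (ENSMUSG00000015468) on chromosome 17:34564268-34588503, plus. Adam10 (ENSMUSG00000054693) lies on chromosome 9:70678997-70780229 on the plus strand and Dtx4 (ENSMUSG00000039982) on chromosome 19:12466338-12501454, minus. Rbpj (ENSMUSG00000039191) covers chromosome 5:53466152-53657362 on the plus strand, Maml1 (ENSMUSG00000050567) chromosome 11:50255634-50292311 on the minus strand and Hes1 (ENSMUSG00000022528) chromosome 16:30064384-30067796 on the plus strand.

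Rbpj protein binds DNA at a short core, TGGGAA, which reads TTCCCA on the other strand. RefSeq promoter windows (GRCm38.p6, 250 bases before to 50 after a start site) were at hand for 7 of the 9 genes, not for Hes1 and Dtx4. The core letters stood in the windows of 1 of these 7 genes, Rbpj itself, and in 8397 of all 32851 windows (25.6%). Both matches are shown because they are the places where the protein's own core letters occur near the start sites of its gene. Both are printed as the plus strand reads, so the second, TTCCCA, has its core on the minus strand. The first is chr5:53590185-53590214, whose core letters begin 149 bases before the start site at 53590346. The second is chr5:53590269-53590298, whose core letters begin 65 bases before that site and 205 before a second start site at 53590486. Both start sites fall inside the annotated gene. The capitals mark the core.
Rbpj match, chr5:53590185-53590214: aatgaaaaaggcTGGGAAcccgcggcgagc
Rbpj match, chr5:53590269-53590298: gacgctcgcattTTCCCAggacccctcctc
The matches are letters in a window and were not measured as binding here.

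Of 17362 barcodes, 14156 were kept: 2244 and 1754 cells in the Rbpj-deleted libraries (replicates 1 and 2, in this order throughout), 931 and 489 cells in the control tumour libraries and 6319 and 2419 cells in the healthy libraries. Libraries totalled 49252701 and 32731006 counts in Rbpj-deleted tumours, 18217310 and 17978360 counts in control tumours and 55229031 and 17430763 counts in healthy brain, and the kept cells had medians of 5271 to 9690 UMIs. Cells were clustered without the 9 genes and without other Notch pathway genes and named from marker genes. Among the kept cells 23 barcode sequences occurred in at least 2 libraries. Earlier results of these data set healthy replicate 1 beside both control tumour libraries and healthy replicate 2 beside both Rbpj-deleted libraries, so each tumour group lies wholly on 1 side of that split. A fit with the split as a term estimates it from the difference between the healthy libraries alone, and it cannot be fitted in T-like cells. Removal of barcodes with RNA of 2 lineages took out 2933, and 1675 of these held both myeloid and T or NK cell RNA. The endothelial-like class, which lies outside the sort, held 38 cells, 30 of them in healthy replicate 1, and the microglia markers summed to 8879 CPM there.

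Levels are given as CPM, the UMIs of a gene in a class and library divided by all UMIs of that class and library and scaled to the usual common total, for classes with at least 20 cells there. Over all kept cells the counts behind them were 26660 UMIs for Adam10, 14882 for Notch2, 9801 for Dtx4, 6050 for Rbpj, 1572 for Notch1, 1335 for Hes1, 854 for Jag1, 620 for Notch4 and 74 for Maml1. These totals set how precisely each gene was measured: the values of Maml1, the coactivator, rest on 43 UMIs over all microglia-like and 23 over all monocyte/macrophage-like cells, with 0.355 to 1.45 CPM over the 6 microglia-like sums. Some letters are shared with other genes, and the way such reads were counted is not stated in the labels. Of the 31-base stretches of Rbpj transcripts 11.8% occur in another gene, mainly the processed pseudogene Rbpj-ps3 on chromosome 6:46529354-46530794, as do 9.40% of those of Notch1 (among them 0610009E02Rik and Gm13568) and 4.28% of those of Notch2 (Gm42820). Over the last 500 bases, where 3' reads fall, the share was 32.5% for Rbpj, 40.9% for Notch1 and 0% for Notch2, so the levels of Rbpj and Notch1 are uncertain to that extent.

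**Figure D1:**
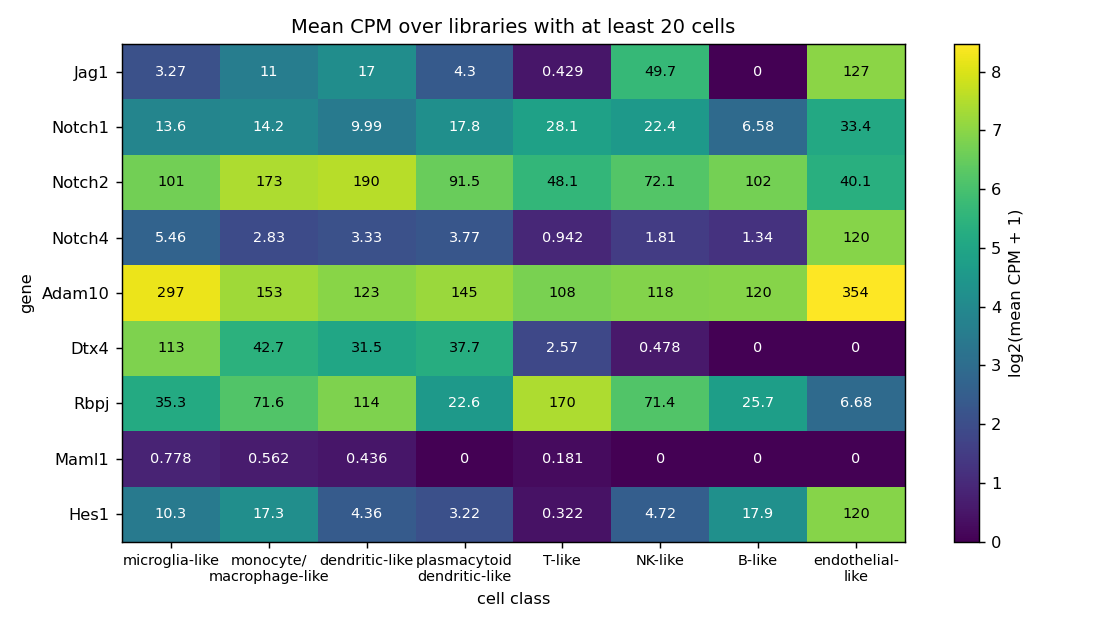
Mean level of each of the 9 genes (rows) in each cell class (columns), in CPM over the libraries with at least 20 cells of that class; numbers are means and the colour is log2(mean CPM + 1). Rbpj is highest in T-like cells (169.5 CPM), Notch2 in dendritic-like cells (190.0 CPM), and Dtx4 in microglia-like cells (113 CPM), while the endothelial-like column is a single library.

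Jag1, the ligand, had its highest levels outside the myeloid classes. In endothelial-like cells of healthy replicate 1, the 1 library with 20 such cells, it had 127 CPM from 19 UMIs. NK-like cells had 39.8 and 31.9 CPM in Rbpj-deleted tumours and 77.5 CPM in control replicate 1, the 3 libraries with enough NK-like cells. Every NK-like value lay above every value of the next class by mean, the dendritic-like cells. The values rest on 71 UMIs over the 3 NK-like and 99 over the 5 dendritic-like sums, so this separation is uncertain.

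Dendritic-like cells had 22.6 and 23.3 CPM of Jag1 in Rbpj-deleted tumours, 3.51 CPM in control replicate 1 (4 UMIs) and 17.9 and 17.6 CPM in healthy brain. Within these cells the Ccr7- and Ccl22-led cluster, whose leading genes are those of migrating dendritic cells, held 31.2 and 42.6 CPM in Rbpj-deleted tumours and 11.1 CPM in control replicate 1. The Cd209a-led cluster held 5.25 and 5.04 CPM in Rbpj-deleted tumours, 1.15 CPM in control replicate 1 and 18.2 and 18.1 CPM in healthy brain. In tumours the Ccr7-led cluster thus had the higher Jag1 level, and in healthy brain nearly all dendritic-like cells were of the Cd209a-led cluster, which held 65 and 32 of their 68 and 34 cells.

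In monocyte/macrophage-like cells Jag1 had 6.24 and 14.2 CPM in Rbpj-deleted tumours, 10.4 and 7.34 CPM in control tumours and 12.02 and 15.7 CPM in healthy brain. Microglia-like cells had 3.53 and 6.40 CPM in Rbpj-deleted tumours and 2.86 and 1.93 CPM in control tumours. Healthy brain had 2.60 and 2.33 CPM in these cells, so both Rbpj-deleted libraries lay above the other 4. The 6 values rest on 165 UMIs together, so this order is uncertain. In Rbpj-deleted tumours against healthy brain the Jag1 difference in microglia-like cells was log2 1.12 ± 0.47 (SE, n = 2 each, edgeR adjusted p = 0.154) and did not pass. In T-like cells 0 UMIs of Jag1 were found in the Rbpj-deleted libraries, which allows up to 8.33 and 6.55 CPM at 3 counts, and 4 and 0 UMIs in the control libraries. Of the other ligand genes, Jag2 had 489 UMIs, Dll1 62 and Dll4 61 over all kept cells.

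Notch2 was the receptor with the most counts. The order by mean ran from dendritic-like cells (190.0 ± 64.4 CPM, SD over 5 libraries) and monocyte/macrophage-like cells (173 ± 46.2 CPM, 6 libraries) to B-like cells (102 ± 36.7 CPM, 3 libraries) and microglia-like cells (101.0 ± 26.2 CPM, 6 libraries). Plasmacytoid dendritic-like cells (91.5 ± 7.24 CPM, 2 libraries), NK-like cells (72.1 ± 33.2 CPM, 3 libraries) and T-like cells (48.1 ± 18.4 CPM, 4 libraries) followed, with 40.1 CPM in the endothelial-like library. The ranges of all neighbours in this order overlapped. The classes were drawn from the same cells, so this order is a description.

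Between the groups, the Notch2 values of the Rbpj-deleted libraries stood apart in several classes. Microglia-like cells had 79.2 and 64.0 CPM in Rbpj-deleted tumours, 98.9 and 132 CPM in control tumours and 125 and 107 CPM in healthy brain. Monocyte/macrophage-like cells had 139 and 99.6 CPM in Rbpj-deleted tumours, 184.3 and 184.0 CPM in control tumours and 202 and 229 CPM in healthy brain. In both classes the Rbpj-deleted libraries were the lowest 2 of the 6.

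T-like cells had 36.1 and 32.8 CPM of Notch2 in Rbpj-deleted tumours and 50.2 and 73.2 CPM in control tumours, again without overlap. Dendritic-like cells had 134 and 109 CPM in Rbpj-deleted tumours, 231 CPM in control replicate 1 and 223 and 254 CPM in healthy brain. In NK-like cells the Rbpj-deleted values, 106 and 39.9 CPM, lay on either side of the 70.3 CPM of control replicate 1. Both Rbpj-deleted libraries were thus below both control libraries in the 3 classes with 2 libraries in each tumour group, and NK-like cells differed from that. These classes come from the same libraries and are not separate repeats, and the share of all genes with such a gap was not counted. Among the members, 4 were lower without overlap in microglia-like cells, 1 in monocyte/macrophage-like cells and 1 in T-like cells. Higher without overlap were 1, 2 and 0 of the members in these classes. For Dtx4 in monocyte/macrophage-like cells the gap was between 42.28 and 42.18 CPM. CPM are scaled by library size alone. In microglia-like cells that scaling put the median difference between Rbpj-deleted and control tumours at log2 -0.105 over 11085 genes. Of the 4 members lower there, Adam10 (highest 290.4 against lowest 292.9 CPM) and Dtx4 (102.0 against 105.3 CPM) had gaps narrow enough to depend on this scaling. Without the share of all genes, these counts are no result about the members. Control replicate 2 held 14 dendritic-like and 18 NK-like cells and gave no level for either.

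None of these Notch2 differences passed the test across all genes. Between Rbpj-deleted and control tumours the log2 difference was -0.58 ± 0.21 in microglia-like cells (SE, n = 2 each, edgeR adjusted p = 0.303). It was -0.66 ± 0.26 in monocyte/macrophage-like cells (edgeR adjusted p = 0.963) and -0.96 ± 0.37 in T-like cells (edgeR adjusted p = 0.618). Against healthy brain, Rbpj-deleted tumours stood at -0.49 ± 0.21 in microglia-like cells (edgeR adjusted p = 0.158), -0.58 ± 0.26 in monocyte/macrophage-like cells (edgeR adjusted p = 0.245) and -0.86 ± 0.34 in dendritic-like cells (edgeR adjusted p = 0.222). Control tumours against healthy brain stood at 0.09 ± 0.21 in microglia-like cells and 0.09 ± 0.26 in monocyte/macrophage-like cells (edgeR adjusted p = 0.893 and 0.884). The second of these has the opposite direction to the CPM, in which both control libraries lay below both healthy ones; the TMM factors were 0.895 and 0.957 for control tumours against 1.15 and 1.14 for healthy brain. With library size alone in place of TMM, the scaling of edgeR, the microglia-like difference against healthy brain was -0.69 in Rbpj-deleted tumours and passed (edgeR adjusted p = 0.0431), and that scaling moved the median of all genes there to -0.22.

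Single clusters gave the following Notch2 levels. In the Saa3- and Ccl8-led cluster, which held most monocyte/macrophage-like cells of the tumours, Notch2 had 138 and 99.3 CPM in Rbpj-deleted tumours and 174 and 178 CPM in control tumours. In the Csf1- and Il1a-led microglia-like cluster it had 78.7 and 64.9 CPM in Rbpj-deleted tumours and 95.9 and 144 CPM in control tumours, and in the microglia-like cluster led by Gm43936 and Hsp90aa1 89.0 and 70.7 against 113 and 127 CPM. In the Cd209a-led dendritic cluster it had 193 and 156 CPM in Rbpj-deleted tumours, 275 CPM in control replicate 1 and 225 and 259 CPM in healthy brain. In the Ccr7-led dendritic cluster the values overlapped, with 104.5 and 58.6 CPM in Rbpj-deleted tumours and 89.0 CPM in control replicate 1.

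**Figure D2:**
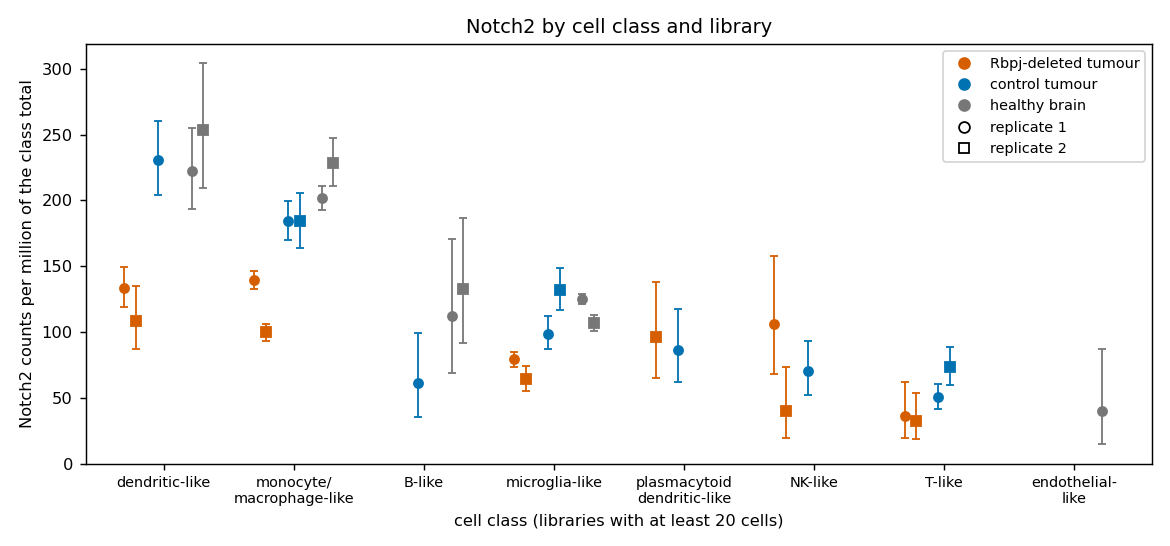
Notch2 level (CPM, linear axis) by cell class and library; bars are exact Poisson 95% intervals, which cover counting error only. The Rbpj-deleted libraries lie below the control tumour libraries in dendritic-like, monocyte/macrophage-like, microglia-like and T-like cells, with 1 control library in the dendritic-like class.

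Notch1, the receptor best known from T cell development, had its highest mean among the immune classes in T-like cells, at 38.9 and 21.8 CPM in Rbpj-deleted tumours and 24.0 and 27.5 CPM in control tumours. NK-like cells had 26.5 and 11.97 CPM in Rbpj-deleted tumours and 28.7 CPM in control replicate 1. Microglia-like cells had 11.2 and 12.4 CPM in Rbpj-deleted tumours, 14.7 and 21.7 CPM in control tumours and 11.3 and 10.1 CPM in healthy brain. The control tumour libraries were the highest 2 of the 6 in microglia-like cells, with log2 0.86 ± 0.29 between control tumours and healthy brain (SE, n = 2 each, edgeR adjusted p = 0.147), which did not pass. In monocyte/macrophage-like cells Notch1 had 13.02 and 12.8 CPM in Rbpj-deleted tumours, 11.9 and 14.1 CPM in control tumours and 15.5 and 17.9 CPM in healthy brain, so both tumour groups lay below healthy brain in CPM. After TMM scaling the fitted differences against healthy brain were -0.08 ± 0.27 in Rbpj-deleted and -0.05 ± 0.29 in control tumours (edgeR adjusted p = 0.8997 and 0.942).

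Notch4, known as the endothelial receptor of the family, had 120 CPM in the endothelial-like sum of healthy replicate 1 from 18 UMIs. Microglia-like cells had 4.26 and 3.20 CPM in Rbpj-deleted tumours, 6.95 and 2.41 CPM in control tumours and 9.81 and 6.15 CPM in healthy brain, where the 6.95 CPM of control replicate 1 exceeded the lower healthy value. The log2 difference between Rbpj-deleted tumours and healthy brain was -0.86 ± 0.44 (edgeR adjusted p = 0.237). The 12 endothelial markers summed to 27.4 and 19.9 CPM in the Rbpj-deleted microglia-like sums (10 and 9 markers with a count, Esam and Ptprb at 0 in both), 26.1 and 24.6 CPM in control tumours (7 and 9 markers, Slco1a4 and Tie1 at 0 in both) and 32.1 and 31.6 CPM in healthy brain (12 and 10 markers). Their part in the level of Notch4 was not tested. All other immune classes stayed at or below 5.25 CPM of Notch4.

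Adam10, the protease of the first cut, was read in every class and was highest among immune classes in microglia-like cells. Those had 290 and 252 CPM in Rbpj-deleted tumours, 293 and 321 CPM in control tumours and 278 and 350 CPM in healthy brain. Every one of these lay above every monocyte/macrophage-like value, which ran from 114 to 184 CPM. Both Rbpj-deleted values lay just below both control values, the other pairs of groups overlapped, and the log2 differences of Adam10 in microglia-like cells were between -0.08 and 0.07, each with an SE of about 0.20 (edgeR adjusted p 0.9055 to 0.985).

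Dtx4, a ligase of the Deltex family that acts on Notch receptors at the membrane, was highest in microglia-like cells. They had 97.4 and 102 CPM in Rbpj-deleted tumours, 118 and 105 CPM in control tumours and 134 and 119 CPM in healthy brain. Monocyte/macrophage-like cells had 51.3 and 42.3 CPM in Rbpj-deleted tumours, 17.9 and 42.2 CPM in control tumours and 69.2 and 33.6 CPM in healthy brain, so no value of theirs reached the lowest microglia-like one. T-like cells had 1.45 to 3.86 CPM, and no UMI of Dtx4 was found in the 3 B-like sums or the endothelial-like one. In microglia-like cells the log2 difference was -0.06 ± 0.18 between Rbpj-deleted and control tumours and -0.15 ± 0.18 between Rbpj-deleted tumours and healthy brain (edgeR adjusted p = 0.918 and 0.657). Over whole libraries, by contrast, Dtx4 had 68.1 and 52.0 CPM in Rbpj-deleted tumours, 37.6 and 55.3 CPM in control tumours and 117 and 98.8 CPM in healthy brain, where microglia-like cells were 73.4% and 66.7% of cells against 22.8% to 48.1% in the tumour libraries.

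Rbpj, the DNA-binding partner of the freed receptor, was highest in T-like cells. They had 194 CPM (exact Poisson 95% interval 152 to 246) and 87.3 CPM (62.4 to 119) in Rbpj-deleted tumours, against 162 CPM (146 to 180) and 234 CPM (209 to 261) in control tumours. The 2 Rbpj-deleted libraries thus differed beyond counting error, and 1 of them lay between the control values. Dendritic-like cells had 77.3 and 63.4 CPM in Rbpj-deleted tumours, 132 CPM in control replicate 1 and 102 and 194 CPM in healthy brain. Both Rbpj-deleted values were the lowest of the 5.

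Monocyte/macrophage-like cells had 71.95 and 47.0 CPM of Rbpj in Rbpj-deleted tumours, 65.6 and 69.1 CPM in control tumours and 59.0 and 117 CPM in healthy brain. Microglia-like cells had 37.1 and 32.7 CPM in Rbpj-deleted tumours, 45.3 and 34.3 CPM in control tumours and 22.2 and 40.0 CPM in healthy brain. In both classes the healthy libraries differed from each other more than any 2 tumour libraries did, and every microglia-like value lay below the lowest monocyte/macrophage-like one. NK-like cells had 111 and 67.8 CPM in Rbpj-deleted tumours and 35.9 CPM in control replicate 1, from 17 to 25 UMIs each.

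By mean over libraries the order of Rbpj was T-like (169.5 ± 62.2 CPM, SD over 4 libraries), dendritic-like (114 ± 51.9, 5 libraries), monocyte/macrophage-like (71.6 ± 23.8, 6 libraries), NK-like (71.4 ± 37.5, 3 libraries), microglia-like (35.3 ± 7.84, 6 libraries), B-like (25.7 ± 14.0, 3 libraries) and plasmacytoid dendritic-like cells (22.6 ± 4.48, 2 libraries). The endothelial-like sum had 1 UMI. Neighbours in this order had overlapping ranges down to the plasmacytoid dendritic-like cells. Some classes further apart overlapped too, such as T-like (87.3 to 234 CPM) and monocyte/macrophage-like cells (47.0 to 117 CPM).

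Single clusters held a wider range of Rbpj. In the Cd209a-led dendritic cluster it had 142 and 95.7 CPM in Rbpj-deleted tumours, 154 CPM in control replicate 1 and 102 and 197 CPM in healthy brain, so the groups overlapped there. The Ccr7-led cluster, which held 71 of 137 and 32 of 75 dendritic-like cells in Rbpj-deleted tumours and 3 of 68 and 2 of 34 in healthy brain, had 45.4 and 29.3 CPM in Rbpj-deleted tumours and 59.3 CPM in control replicate 1. Among macrophages, the cluster of border macrophages led by Lyve1 and Pf4 had 170 and 62.1 CPM in Rbpj-deleted tumours, 169 CPM in control replicate 1 and 64.8 and 135 CPM in healthy brain. The Saa3-led cluster had 69.3 and 47.2 CPM in Rbpj-deleted tumours and 58.2 and 65.5 CPM in control tumours.

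**Figure D3:**
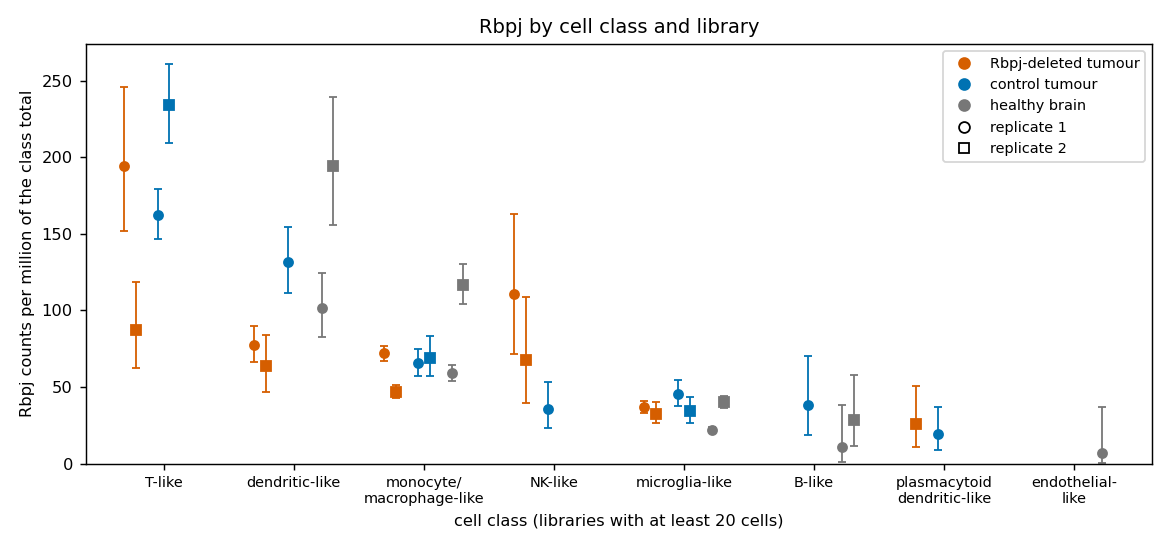
Rbpj level (CPM, linear axis) by cell class and library; points are libraries with at least 20 cells of the class and bars are exact Poisson 95% intervals, which cover counting error only. T-like cells hold the highest values, up to 234 CPM, and all 6 microglia-like values lie between 22.2 and 45.3 CPM.

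No Rbpj difference passed the test. Between Rbpj-deleted and control tumours it was log2 -0.08 ± 0.28 in microglia-like, -0.22 ± 0.34 in monocyte/macrophage-like and -0.64 ± 0.38 in T-like cells (SE, n = 2 libraries each, edgeR adjusted p = 0.934, 0.993 and 0.804). Leaving out 1 library turned the sign in the first 2 of these classes (range -0.27 to 0.13 and -0.50 to 0.03). Rbpj-deleted tumours against healthy brain gave 0.39 ± 0.27 in microglia-like, -0.28 ± 0.34 in monocyte/macrophage-like and -0.94 ± 0.37 in dendritic-like cells (edgeR adjusted p = 0.396, 0.697 and 0.212). Control tumours against healthy brain gave 0.48 ± 0.28 in microglia-like and -0.06 ± 0.35 in monocyte/macrophage-like cells (edgeR adjusted p = 0.452 and 0.939).

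The healthy libraries decided several of these values. Without healthy replicate 2, Rbpj in microglia-like cells stood at log2 0.85 between Rbpj-deleted tumours and healthy brain and 0.94 between control tumours and healthy brain, and both passed (edgeR adjusted p = 0.0391 and 0.0498). Without healthy replicate 1 it was -1.37 in dendritic-like cells and passed (edgeR adjusted p = 0.0451), and without healthy replicate 2 it was -0.30. Most microglia-like cells of healthy brain fell in clusters that held few tumour cells: 1416 of 1613 in healthy replicate 2 lay in 1 cluster, while those of healthy replicate 1 lay mainly in 3 other clusters. The 12 T markers, all with a count in the tumour libraries, summed to 40.4 and 38.4 CPM in the microglia-like sums of Rbpj-deleted tumours, 27.0 and 38.2 CPM in control tumours and 7.55 and 6.05 CPM in healthy brain (Cd3e at 0 in replicate 2). In T-like cells the same list summed to 11090 CPM or more, and the part of this RNA in the Rbpj values was not tested.

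Over whole libraries Rbpj had 59.7 and 44.3 CPM in Rbpj-deleted tumours, 82.2 and 93.0 CPM in control tumours and 32.5 and 58.4 CPM in healthy brain. T-like cells made up 2.01% and 4.28% of kept cells in Rbpj-deleted tumours, 18.6% and 20.9% of them in control tumours and 0.079% and 0.413% of them in healthy brain. Without the T-like cells the values were 57.8 and 43.1 CPM in Rbpj-deleted tumours, 61.7 and 51.5 CPM in control tumours and 32.5 and 58.5 CPM in healthy brain. The tumour groups then overlapped, though Rbpj-deleted replicate 2 stayed below both control values. The part of the T-like share in the whole-library values was not tested. 

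**Figure D4:**
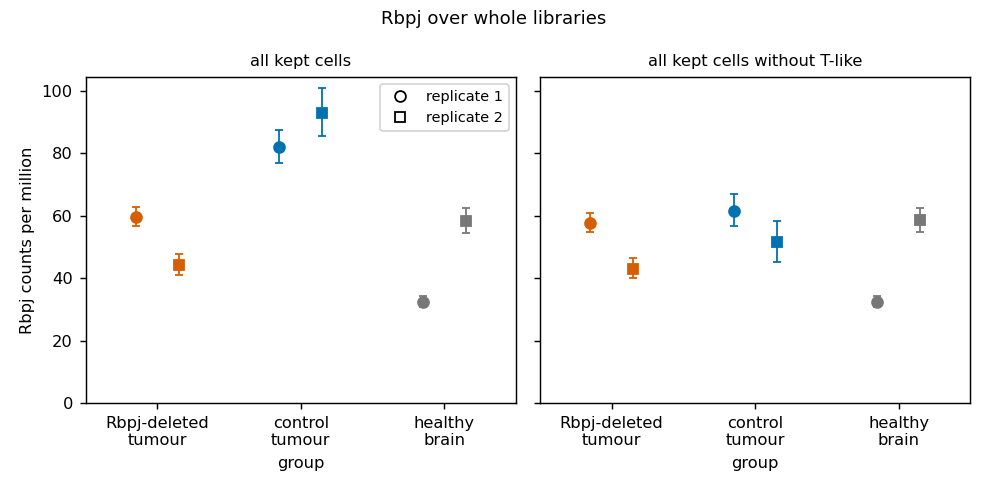
Rbpj level (CPM, linear axis from 0) over all kept cells of each library (left) and without T-like cells (right); bars are exact Poisson 95% intervals. The control tumour libraries stand highest on the left, at 82.2 and 93.0 CPM, and overlap the Rbpj-deleted ones on the right, at 61.7 and 51.5 CPM.

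Hes1, the target gene, reached its highest level among the clusters of the named immune classes in 1 group of monocytes. The cluster led by Ace and Treml4, genes of non-classical monocytes, had 131 and 66.6 CPM in Rbpj-deleted tumours and 56.5 and 143 CPM in healthy brain. Chil3 of the monocyte list was also among its leading genes, and the cluster was not divided by monocyte type. It held 23 and 71 cells in Rbpj-deleted tumours, 16 and 6 in control tumours, too few for a level, and 125 and 49 in healthy brain. Of all 290 cells of this cluster 105 had a UMI of Hes1, with 224 of the 1335 Hes1 UMIs of all kept cells. The endothelial-like sum of healthy replicate 1 had 120 CPM from 18 UMIs.

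Elsewhere Hes1 was lower. Dendritic-like cells had 8.69 and 7.77 CPM in Rbpj-deleted tumours, no UMI in control replicate 1 and 3.15 and 2.21 CPM in healthy brain. B-like cells had 26.8 CPM in control replicate 1 and 10.6 and 16.1 CPM in healthy brain, from 2 to 7 UMIs each. In T-like cells 0 UMIs were found in both Rbpj-deleted libraries and in control replicate 2, and 3 UMIs in control replicate 1. A count of 0 allows up to 8.33, 6.55 and 2.17 CPM in those 3 sums, so the class with the most Rbpj had a Hes1 level that was at or near the detection limit.

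Monocyte/macrophage-like cells had 16.4 and 27.0 CPM of Hes1 in Rbpj-deleted tumours, 10.4 and 7.34 CPM in control tumours and 13.3 and 29.4 CPM in healthy brain. Both Rbpj-deleted libraries lay above both control libraries, with log2 1.21 ± 0.48 (SE, n = 2 each, edgeR adjusted p = 0.963), which did not pass. The difference was 0.05 with the library split as a term. That term subtracts the difference between the healthy libraries, at 13.3 and 29.4 CPM, and adjusts nothing within the tumour libraries. In the Saa3-led cluster alone the values were 13.5 and 25.7 CPM in Rbpj-deleted tumours and 7.96 and 7.51 CPM in control tumours. The endothelial markers in the monocyte/macrophage-like sums reached 41.1 and 56.1 CPM in Rbpj-deleted tumours (11 and 12 of 12 markers with a count, Esam at 0 in 1), 82.6 and 37.3 CPM in control tumours (8 and 6 markers, with Esam, Cdh5, Tie1 and Ptprb at 0 in both) and 91.6 and 137 CPM in healthy brain (12 and 10 markers). Their part in the level of Hes1 was not tested.

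Microglia-like cells had 11.2 and 7.46 CPM of Hes1 in Rbpj-deleted tumours, 18.4 and 10.6 CPM in control tumours and 4.01 and 10.3 CPM in healthy brain. The log2 difference was 1.17 ± 0.48 between control tumours and healthy brain (edgeR adjusted p = 0.266) and 0.67 ± 0.46 between Rbpj-deleted tumours and healthy brain (edgeR adjusted p = 0.399). Without healthy replicate 2 they stood at 1.95 and 1.46. With the library split as a term the first was 1.95 too, but that is the same comparison. The split sets control tumours against healthy replicate 1 alone, as leaving out healthy replicate 2 does. The microglia-like cluster led by Gm43936 and Hsp90aa1 had Hes1 at 17.2 and 6.54 CPM in Rbpj-deleted tumours and 43.8 and 19.2 CPM in control tumours. The Csf1-led one had 9.79 and 19.7 CPM in Rbpj-deleted tumours and 2.998 and 4.92 CPM in control tumours. These last 2 values came from 94 and 112 cells and rest on few UMIs, so the opposite orders of the 2 clusters are uncertain.

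Across the 9 genes, 0 were called in any of the 8 comparisons that could be fitted, at an adjusted p under 0.05 by edgeR's quasi-likelihood test with Benjamini-Hochberg adjustment over all genes, and 0 by DESeq2. Between Rbpj-deleted and control tumours 0 of 8 members tested were called in microglia-like cells, where 0.126% of 11085 genes were called. The same count was 0 of 8 in monocyte/macrophage-like cells (0.0263% of 11426 genes) and 0 of 4 in T-like cells (0.225% of 7100 genes). At an unadjusted edgeR p under 0.05 there were 1, 2 and 1 members in these comparisons: Notch2 in each, and Hes1 in monocyte/macrophage-like cells. At the same unadjusted p there were 1401 of all 11085 genes in microglia-like, 568 of 11426 in monocyte/macrophage-like and 518 of 7100 in T-like cells, so the microglia-like count is near that of all genes. The median log2 difference of the members tested was -0.14, 0.05 and -0.31 in these classes, and the medians of all genes lay between -0.01 and 0.01.

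For Rbpj-deleted tumours against healthy brain 0 of 8 members were called in microglia-like cells against 11.4% of all genes, 0 of 8 in monocyte/macrophage-like cells against 5.32% and 0 of 6 in dendritic-like cells against 4.83% of 7229 genes. At an unadjusted edgeR p under 0.05 there were 2 (Notch2 and Jag1), 0 and 2 (Notch2 and Rbpj), beside 2858 of all 11085, 2348 of 11426 and 1000 of 7229 genes. These member counts are near or below what the shares of all genes give, except in dendritic-like cells, where 2 of 6 members were counted. Between control tumours and healthy brain 0 of 8 were called in microglia-like cells against 3.82% and 0 of 8 in monocyte/macrophage-like cells against 5.03%, with 2 (Notch1 and Hes1) and 0 at an unadjusted edgeR p under 0.05, beside 1752 of 11085 and 2431 of 11426 genes. Maml1 passed the filter on low counts in no class. The 3 comparisons share libraries, so their values are given side by side and were not overlapped. With 2 libraries per group, the standard errors above limit which sizes of change could be called.

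**Figure D5:**
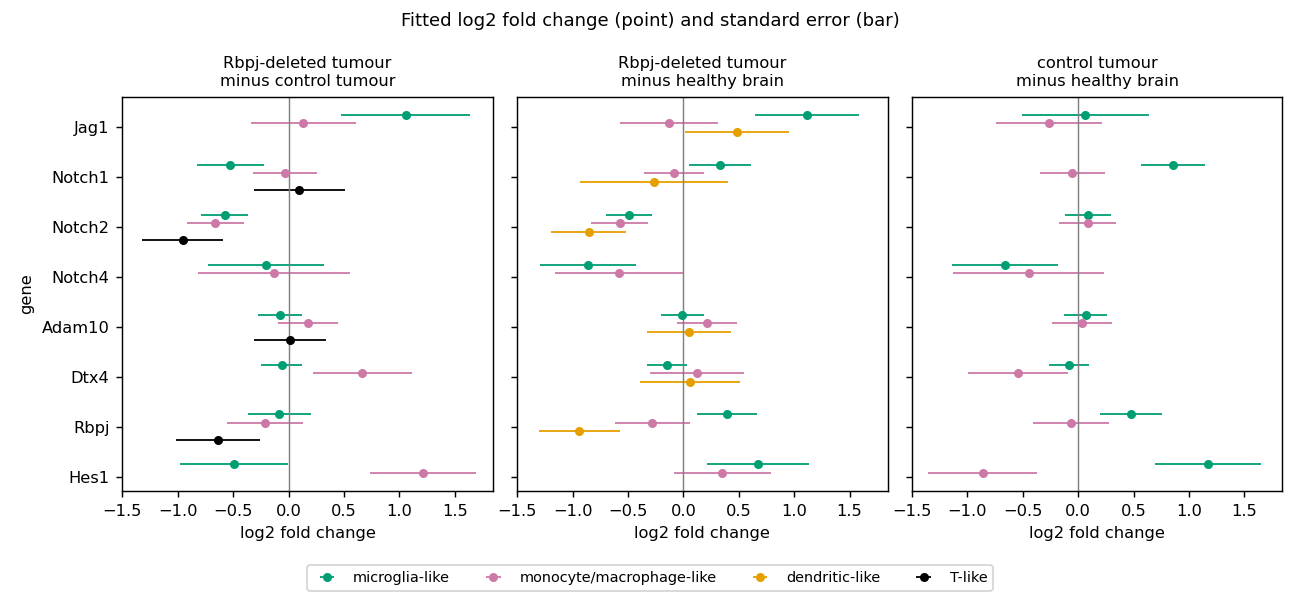
Fitted log2 fold changes (points) with standard errors (bars) of the members that passed the filter, in each comparison and class; positive values are higher in the group named first. The 3 Notch2 points of Rbpj-deleted minus control tumour lie at -0.58, -0.66 and -0.96, and no point passed an adjusted p of 0.05.

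Whether a difference was unlike between microglia-like and monocyte/macrophage-like cells was tested as an interaction within libraries, with 12049 genes tested. None of the members passed in any of the 3 comparisons by this edgeR fit, where 0.0332% of genes were called between the tumour groups, 0.971% between Rbpj-deleted tumours and healthy brain and 0.332% between control tumours and healthy brain. The smallest adjusted p belonged to Hes1 between control tumours and healthy brain, where microglia-like minus monocyte/macrophage-like was log2 2.12 ± 0.48 (edgeR adjusted p = 0.111). Between Rbpj-deleted and control tumours Hes1 differed by -1.64 ± 0.49 (edgeR adjusted p = 0.645). Jag1 and Rbpj between Rbpj-deleted tumours and healthy brain stood at 1.33 ± 0.38 and 0.61 ± 0.21 (edgeR adjusted p = 0.190 and 0.301). Between control tumours and healthy brain Notch1 and Rbpj stood at 0.85 ± 0.33 and 0.52 ± 0.22 (edgeR adjusted p = 0.337 and 0.378). Notch2 stood at 0.06 ± 0.25 between the tumour groups, so its difference there was of like size in both classes within this error.

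Of 68 other listed pathway genes, 67 had a row: ligands, the receptor Notch3 (8 UMIs in all), cleavage and glycosylation enzymes, ligases, nuclear partners and targets. Between Rbpj-deleted and control tumours none was called by edgeR among 49 tested in microglia-like, 51 in monocyte/macrophage-like and 38 in T-like cells. Among the targets, Cd44, an adhesion receptor gene, rose in microglia-like cells of both tumour groups, by log2 3.34 ± 0.36 between Rbpj-deleted tumours and healthy brain and by 3.35 ± 0.38 between control tumours and healthy brain (edgeR adjusted p = 7.6e-05 and 0.000175). It was the 1 call among 49 genes in the second of these comparisons, and the T markers given above for microglia-like sums were also higher in tumours. The 12 monocyte markers summed to 122 and 119 CPM in microglia-like cells of Rbpj-deleted tumours (11 and 8 with a count), 124 and 121 CPM in control tumours (9 and 7) and 16.4 and 23.0 CPM in healthy brain (11 each), with Ear2 at 0 in all 6 libraries. The part of either list in the Cd44 value was not tested. In the first, Psen2, a catalytic subunit of gamma-secretase (0.71 ± 0.21, edgeR adjusted p = 0.0426), and Dtx3l, a Deltex-like ligase gene (0.70 ± 0.20, edgeR adjusted p = 0.0368), also rose. There Maml3, a Mastermind-like coactivator gene, fell (-0.79 ± 0.19, edgeR adjusted p = 0.0186), as did Numb, an inhibitor of Notch receptors (-0.66 ± 0.19, edgeR adjusted p = 0.0457). That made 3 higher and 2 lower of 49, or 10.2%, beside 11.4% of all genes, with 1 call among the cleavage genes, 2 among the ligases, 1 among the nuclear activators, 1 among the targets and 0 of 12 nuclear corepressors tested.

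In monocyte/macrophage-like cells 1 pathway gene was higher and 2 were lower of 51 in Rbpj-deleted tumours against healthy brain (5.88%, beside 5.32% of all genes), and 1 was higher and 1 lower in control tumours (3.92%, beside 5.03%), shares near those of all genes. The class differed in makeup: the Saa3-led cluster held 614 of 701 and 664 of 897 of its cells in Rbpj-deleted tumours, 171 of 220 and 64 of 82 of them in control tumours and 3 of 1011 and 5 of 322 in healthy brain, where the Lyve1- and Pf4-led cluster held 796 and 227. The border macrophage markers, all 12 with a count in each library, summed to 3087 and 2288 CPM in Rbpj-deleted tumours, 2165 and 2850 CPM in control tumours and 9344 and 13970 CPM in healthy brain. The part of this makeup in the differences against healthy brain in this class was not tested. Aph1b, a gamma-secretase subunit gene, fell by log2 2.03 ± 0.34 in Rbpj-deleted and by 1.87 ± 0.38 in control tumours against healthy brain (edgeR adjusted p = 0.0124 and 0.027), and Aph1c fell by 1.19 ± 0.23 in Rbpj-deleted tumours (edgeR adjusted p = 0.0193). Both are uncertain, because 24.8% and 25.3% of their 31-base stretches occur in another gene, chiefly each other. Dtx3l rose in control tumours (1.10 ± 0.23, edgeR adjusted p = 0.0276). Gata3, a transcription factor gene of T and innate lymphoid cells, rose in Rbpj-deleted tumours (3.07 ± 0.69, edgeR adjusted p = 0.036), where the T markers summed to 156 and 97.4 CPM, against 49.0 and 45.5 CPM in healthy brain (12 and 9 of 12 markers with a count there, Cd6, Lat and Cd8a at 0 in replicate 2). The 12 NK markers summed to 32.5 and 31.7 CPM in Rbpj-deleted tumours (10 and 11 with a count, Klra8 at 0 in both) and to 8.15 and 2.61 CPM in healthy brain (9 and 3 with a count, Klra8, Klra7 and Klra4 at 0 in both). The part of either list in the Gata3 value was not tested.

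In dendritic-like cells 2 pathway genes were higher and 2 lower of 43 in Rbpj-deleted tumours against healthy brain (9.30%, beside 4.83% of all genes). Il2ra, the alpha chain of the interleukin 2 receptor, rose by log2 2.44 ± 0.57 and Poglut1, which adds glucose to Notch receptors, by 1.56 ± 0.40 (edgeR adjusted p = 0.013 and 0.0262). Aph1b fell by 1.999 ± 0.46 and Aph1c fell by 1.42 ± 0.36 (edgeR adjusted p = 0.0114 and 0.0239). The makeup of this class differed between the groups, as given for the Ccr7-led cluster.

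The genes whose levels followed Rbpj most closely over the 30 sums of a class and library were Fnbp1 (Pearson r 0.80), Rab8b (0.80), S100a4 (0.78), Lcp1 (0.77) and Mdfic (0.77), among 6094 genes compared on log2(CPM + 1). The sums share libraries and classes, so the correlations are a description. S100a4, Lcp1 and Mdfic were highest in T-like cells like Rbpj, at 946, 917 and 57.5 CPM against 5.13, 419 and 7.86 CPM in microglia-like cells, while Fnbp1 and Rab8b were highest in dendritic-like cells at 207 and 230 CPM.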

How the data were processed

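The authors deposited 1 table of raw UMI counts per gene and cell barcode over all 6 libraries, in which no barcode had under 1000 counts. Kallisto 0.46.0, bustools 0.39.3 and the mm10 build are named, without their roles, per the submitters' processing notes. A barcode needed 500 detected genes or more and a mitochondrial share of 10% or less, and 256 were removed because another library held the same barcode with over 10 times their counts. Barcodes that reached 3 counts and 5% of the top cluster's level for markers of 2 lineages were removed as mixed; no doublet caller was run. These rules, the shared myeloid lineage and the naming of borderline clusters were set after seeing the data. Clustering used scanpy 1.11.5 (2000 variable genes without the 9 members and the listed pathway genes, 30 components, Leiden resolution 1), which gave 26 clusters, 3 of them unnamed (1275 cells).

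Counts were summed per library and class with at least 20 cells. They were tested with edgeR 4.0.16 (quasi-likelihood, TMM, filterByExpr, Benjamini-Hochberg over all genes, threshold 0.05) in one model per class over the groups with 2 such libraries. DESeq2 1.42.0, other scaling, no filter, the replicate block, the library split and leaving out libraries or the Csf1-led cluster were alternatives, and the code was tested on simulated data. Poisson intervals and the floor of 3 counts cover counting error only. The groups come from the labels, and 0 columns were left unmatched. Named genes are the 9 members, pathway genes with an adjusted p under 0.05 and the 5 genes most like Rbpj. The members and lists were chosen with earlier results of these data known. Replicate numbers did not pair the libraries.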

Additional observations from a re-analysis of the deposited data

How the results depend on the processing

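The count of members called was 0 in all 8 comparisons and 0 with DESeq2, without the filter on low counts, with mixed barcodes kept and with the replicate block. Library size alone gave 1 in microglia-like cells between Rbpj-deleted tumours and healthy brain (Notch2). The library split as a term gave 1 in microglia-like cells between control tumours and healthy brain (Hes1). With the split, control tumours are set against healthy replicate 1 alone, as without healthy replicate 2, so this is no separate result. Leaving out 1 library gave 0 to 2 members in both microglia-like comparisons with healthy brain, 0 to 1 in the dendritic-like one and 0 elsewhere. Rbpj changed sign in monocyte/macrophage-like cells between control tumours and healthy brain with the library split (0.50) and with mixed barcodes kept (0.12). Without 1 library Rbpj ranged in these cells from -0.50 to 0.033 between the tumour groups, from -0.71 to 0.29 between Rbpj-deleted tumours and healthy brain and from -0.50 to 0.50 between control tumours and healthy brain, and in microglia-like cells from -0.27 to 0.13 between the tumour groups. With the library split as a term, Rbpj between the tumour groups was -0.91 in microglia-like and -1.21 in monocyte/macrophage-like cells. That term subtracts the difference of healthy replicate 2 from healthy replicate 1 and adjusts nothing within the tumour libraries. Rbpj in these healthy libraries had 22.15 and 40.05 CPM in microglia-like and 59.03 and 116.7 CPM in monocyte/macrophage-like cells. Notch2 in Rbpj-deleted tumours against control tumours stayed negative under every alternative run; without 1 library it ranged from -0.79 to -0.36, -0.87 to -0.47 and -1.30 to -0.61 in microglia-like, monocyte/macrophage-like and T-like cells. Library size alone moved the median of all genes to between -0.34 and 0.10. Between the tumour groups the count of genes called in microglia-like cells was 14, against 158 with DESeq2, 360 without the filter, 30 with the split, 38 with the replicate block, 2 without the Csf1-led cluster and 0 to 265 without 1 library. In monocyte/macrophage-like cells it was 3, against 24 with DESeq2, 99 without the filter, 1 with the block, 0 with library size alone, the split or mixed barcodes kept and 0 to 25 without 1 library. In T-like cells it was 16, against 139 without the filter and 16 to 139 without 1 library. For control tumours against healthy brain it was 423 in microglia-like cells, against 807 without the filter, 29 without the Csf1-led cluster and 171 to 591 without 1 library, and 575 in monocyte/macrophage-like cells, against 947 with DESeq2, 1459 without the filter, 327 with the split, 354 with the block, 1261 with mixed barcodes kept and 205 to 819 without 1 library. For Rbpj-deleted tumours it was 1265 in microglia-like cells, against 541 without the Csf1-led cluster and 834 to 1240 without 1 library, and 608 in monocyte/macrophage-like cells, against 942, 1485, 198, 379 and 1146 with those 5 settings in the same order and 188 to 925 without 1 library. Same-numbered libraries did not deviate together (correlations -0.278 to 0.19), and the split was not run in dendritic-like cells and could not be fitted in T-like cells. Fewer than 100 UMIs behind Maml1 in all cells set the limit for that gene.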

Other observations

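A small cluster led by Mpo, Iglc2 and Prtn3, genes of myeloid progenitors and antibody-producing cells, held 53 cells, with fewer than 20 in every library. It was named mast or basophil-like, and Mcpt8 and Cpa3 of that marker list were also among its leading genes. Hes1 had 52 UMIs in 11 of its cells. Of these, 35 UMIs lay in 2 of the 4 cells of Rbpj-deleted replicate 1, and 34 of them in a single cell. No level was therefore compared between groups.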
